A study of Mus musculus with 16 samples.

Results

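The insulin-like growth factor (IGF) axis was followed in isolated kidney glomeruli through 10 genes listed by their symbols. The list was chosen with earlier results of these data known. Its genes are the ligands Igf1 and Igf2, the receptors Igf1r and Igf2r, and the binding proteins Igfbp2 to Igfbp7 without a gap in the numbering. Each was represented by its transcript cluster of highest mean signal, and 10 of 10 were found among 18302 genes with 1 symbol. Their 156 probe sets, of 375483 in all, gave a second reading on the exon level. The glomeruli came from mouse embryos at E18.5, on a mixed background that the labels write as C57Bl6x DBA2 mixed. There were 4 wild-type embryos and 4 carrying the change that the labels call wt1(+KTS) mutant, under sample titles with the name Frasier. WT1 is a zinc finger protein of podocytes, which cover the capillaries of the glomerulus, and its +KTS form carries an insert of the amino acids KTS. Zygosity, sex and litter are not given in the labels, and no treatment was applied to either group.

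IGF1 and IGF2 are small secreted hormones that act through the tyrosine kinase receptor IGF1R, which signals to growth and survival through PI3K, AKT and MAP kinases. IGF2R, also the mannose 6-phosphate receptor, takes up IGF2 for breakdown in lysosomes, and the binding proteins hold both ligands in body fluids and at the cell surface until proteases release them. Igf2 is the abundant ligand of fetal tissues, kidney included, and in earlier reporter assays WT1 bound and repressed the promoters of Igf2 and Igf1r.

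Signal was read as log2 values on Affymetrix exon arrays, and the difference is always mutant minus wild type. A row is said to have risen or fallen, or to be called, where limma's p, adjusted by Benjamini-Hochberg over every row of its table, was under 0.05. Brightness depends on the probes, so levels were not compared between genes. Wild-type replicate 4 correlated with the other arrays at 0.869 to 0.918, below the 0.937 to 0.946 among wild-type replicates 1 to 3 and the 0.938 to 0.96 among the mutants. Labels do not say whether embryos shared a litter, so p-values measure the spread between these arrays only. No probe set is known to lie in the KTS insert, so Wt1 does not check the genotype, and it did not pass (log2 difference −0.11 ± 0.11 SE, adjusted p = 0.701). A letter that ends the sample codes has no stated meaning and never occurs in both genotypes, so its effect and that of genotype cannot be told apart. Wild-type replicate 4 and mutant replicate 1 each had a letter that no other array had. Of the podocyte markers, Nphs1, Podxl, Synpo, Ptpro, Cd2ap and Thsd7a had mean signals of 7.43 to 10.60. Over those 6 markers the mean signal was 8.78 to 9.05 on the wild-type arrays and 8.05 to 8.30 on the mutant arrays. Tubule markers gave signal too. The 8 of the proximal tubule had mean signals of 6.09 to 10.76, and the 6 of loop, distal tubule and collecting duct 8.55 to 11.41. The share of tubular RNA in these preparations was not tested.

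At the gene level Igfbp2 was the member with the largest difference, and none of the 10 members was called by limma. The background was 0.827% of all 93623 clusters, with 0.336% called higher and 0.49% called lower. Of the members 3 were higher and 7 lower in mean, where 44.6% of all clusters were higher, with a median difference of −0.092 on the log2 scale, beside −0.032 over all clusters. Only Igfbp2 had an unadjusted p under 0.05, where 14.3% of all clusters did. The genotypes did not overlap in 2 of the 10 members, Igfbp2 and Igfbp4, and in 9.54% of all clusters, the mutants lying above in 4.79% and below in 4.74%. Among the genes with 1 symbol that share was 17.5%, close to the share of the members. A lower signal in whole glomeruli cannot be told apart from a smaller share of the cells that make the transcript.

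**Figure D1:**
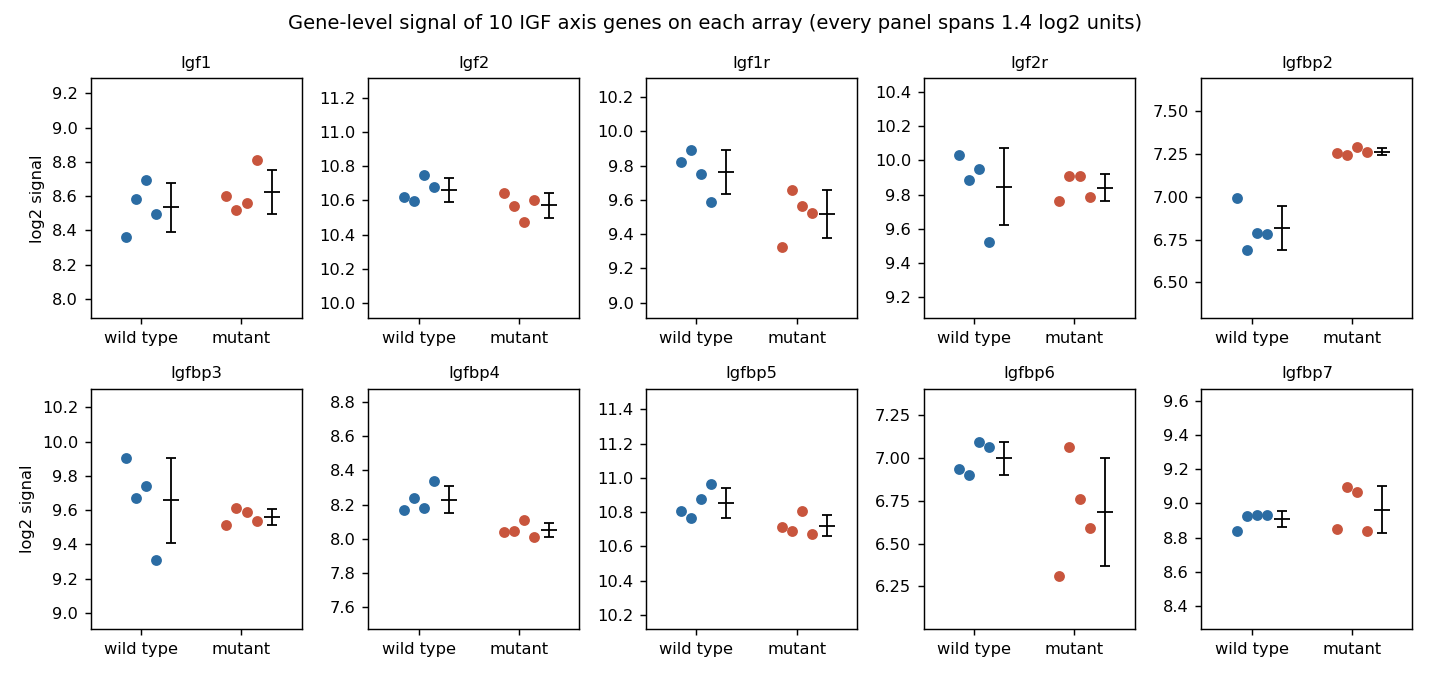
Gene-level log2 signal of the 10 IGF axis genes, 1 point per array (wild type blue, mutant red, n = 4 each) with the mean and SD in black. The 4 mutant arrays of Igfbp2 lie at 7.24 to 7.29, above the wild-type range of 6.69 to 7.00, and those of Igfbp4 lie below the wild type.

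IGFBP2 is a binding protein abundant in fetal tissues that also carries an integrin-binding RGD motif. Its gene-level log2 signal (transcript cluster 6750440) was 7.00, 6.69, 6.79 and 6.79 in wild-type replicates 1 to 4. In mutant replicates 1 to 4 it was 7.26, 7.24, 7.29 and 7.26. Every mutant array was above every wild-type array, and the mutants differed among themselves far less than the wild type did. The log2 difference was 0.45 ± 0.11 (SE, n = 4 per genotype), a 1.36-fold higher signal, with a 95% interval of 0.21 to 0.69. The exact permutation p was 0.0286, the smallest that 4 against 4 arrays can give, but limma's adjusted p over all clusters was 0.105. In a refit over the 20707 clusters with 1 symbol the same difference had an adjusted p of 0.014. In one over clusters at or above the median brightness it had 0.0483. Both refits also estimated the variance anew, and their called shares over all rows are not given here. Treating the code letter as a random block gave 0.252.

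The exon level showed the same gene in finer detail. All 7 Igfbp2 probe sets were higher in the mutants, by 0.26 to 1.05 on the log2 scale, and 4 of them rose past the threshold, where 51.1% of all probe sets were higher. In 6 of the 7 the mutants lay wholly above the wild type, beside 7.53% of all probe sets. These 4 were the whole of the calls among the 156 probe sets of the axis, 2.56%, beside 2.67% of all 375483 probe sets. The axis as a whole was called no more often than the table. Probe sets of 1 gene share the same RNA and arrays, so they are not replicates of each other.

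The largest rise was in probe set 5447799, which read 7.96, 7.19, 7.46 and 7.29 in wild-type replicates 1 to 4 and 8.63, 8.45, 8.54 and 8.48 in mutant replicates 1 to 4. Wild-type replicate 1 was the brightest of its group and still lay below all 4 mutants. The log2 difference was 1.05 ± 0.17 (SE, n = 4 per genotype, limma adjusted p = 0.0168). Probe set 4308391 rose by 0.88, from 5.24 ± 0.38 (SD, n = 4) to 6.12 ± 0.16, with an adjusted p of 0.0456. It was dim, below the median brightness of all probe sets. Probe set 4702127 rose by 0.66, from 8.34 ± 0.22 to 8.999 ± 0.10 (adjusted p = 0.0448). Probe set 4825612 rose by 0.59, from 8.82 ± 0.14 to 9.41 ± 0.096 (adjusted p = 0.0429). The other 3 differed by 0.57 (adjusted p = 0.0768), 0.41 (adjusted p = 0.117) and 0.26 (adjusted p = 0.310).

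**Figure D2:**
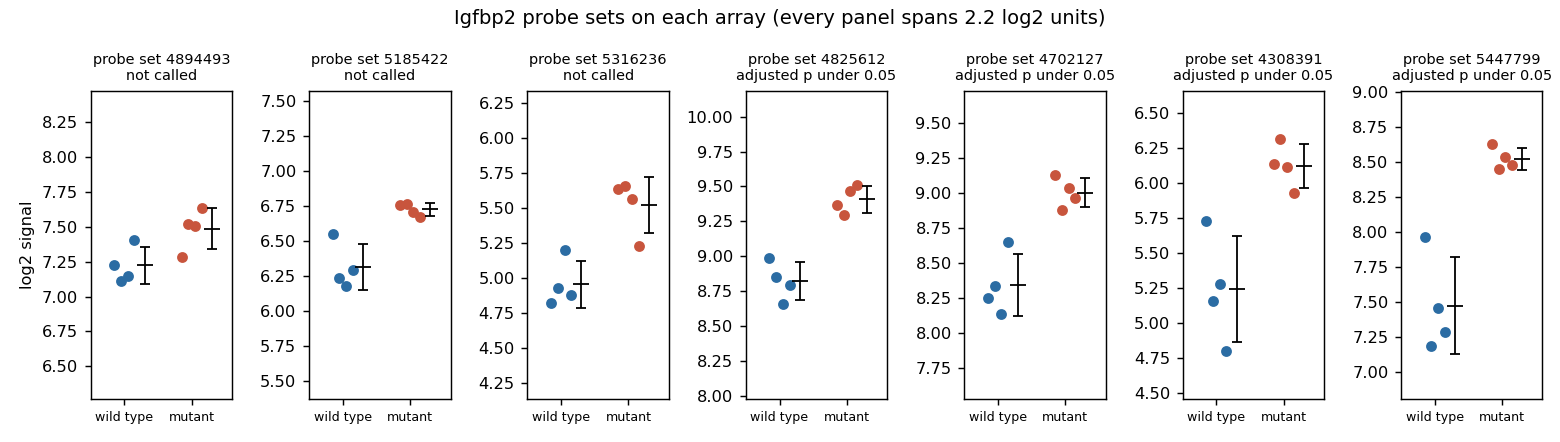
Exon-level log2 signal of the 7 Igfbp2 probe sets, ordered from the smallest to the largest difference, 1 point per array (wild type blue, mutant red) with mean and SD in black. In 6 of 7 panels all 4 mutant arrays lie above all 4 wild-type arrays.

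Averaged over its 7 probe sets on each array, Igfbp2 was 0.63 ± 0.082 higher in the mutants (SE, n = 4 per genotype, 1.55-fold). Equal weight went to all 7, of which only 4 reached the median brightness of all probe sets and the dimmest had a mean of 5.24. On this mean limma called Igfbp2 (adjusted p = 0.00168), in a fit over 18513 genes in which 11.4% were called. It was the only member of the 10 called on that scale. The call held without each array in turn (adjusted p 0.0031 to 0.00898), with the letter as a random block (0.00998) and with each array centred on its median (log2 difference 0.54). No letter occurs in both genotypes, so the block cannot separate an effect of the letter from that of genotype. The 4 calls per probe set were less steady. They fell to 0 with the letter as a random block, and to 2 when the values were quantile normalized again. They were 2, 0, 1 and 2 without wild-type replicates 1 to 4, and 1, 1, 0 and 1 without mutant replicates 1 to 4.

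Several marker lists moved beside Igfbp2. Of 8 progenitor markers 4 were called higher, where 0.336% of all clusters were, 6 were higher in mean and 2 lower, and the list's mean signal was 7.92 to 8.10 on the mutant arrays and 7.56 to 7.70 on the wild-type arrays. Itga8, which is also on the mesangial list, was among the lower ones, with the mutants wholly below the wild type (log2 difference −0.45 ± 0.12 SE, adjusted p = 0.146). Of 6 parietal epithelium markers 1 was called, Cd44, and all 6 were higher, with a mean of 8.95 to 9.09 against 8.39 to 8.73. The 8 proximal tubule markers were all lower and 4 were called, beside 0.49% of all clusters, with a mean of 8.30 to 8.65 on the mutant and 9.07 to 9.32 on the wild-type arrays. The podocyte list was lower as given above, and the 8 endothelial markers were all lower, 1 of them called, with a mean of 8.94 to 9.02 on the mutant and 9.31 to 9.49 on the wild-type arrays. The 5 leukocyte markers had no call, but their mean was 6.67 to 6.84 on the mutant and 6.93 to 7.04 on the wild-type arrays. The 8 stromal markers had no call, at 8.65 to 9.13 and 8.69 to 8.89. The part of these cells in the Igfbp2 difference was not tested.

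Igfbp2 and Igfbp5 are neighbours on chromosome 1 in the RefSeq gene order. Their 2 promoters are shown because the neighbours differed unlike each other, and that of Igf2r because it held the only motif match among the members. All are RefSeq sequences of GRCm38.p6, a different build from the mm9 of the deposited data, written 5′ to 3′ on the gene's strand from 250 bases before to 50 after the start. Capitals mark the 50 transcribed bases in Igfbp2 (chr1:72824230-72824529, plus strand) and Igfbp5 (chr1:72874816-72875115, minus strand). In Igf2r (chr17:12769657-12769956, minus strand) they mark the match to GCGNGGGCG.
Igfbp2: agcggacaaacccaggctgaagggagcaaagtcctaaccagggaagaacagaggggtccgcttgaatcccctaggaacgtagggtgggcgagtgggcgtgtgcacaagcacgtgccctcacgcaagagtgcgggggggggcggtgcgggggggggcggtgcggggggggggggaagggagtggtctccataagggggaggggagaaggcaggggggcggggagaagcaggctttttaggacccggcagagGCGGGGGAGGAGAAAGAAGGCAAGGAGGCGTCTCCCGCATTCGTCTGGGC
Igfbp5: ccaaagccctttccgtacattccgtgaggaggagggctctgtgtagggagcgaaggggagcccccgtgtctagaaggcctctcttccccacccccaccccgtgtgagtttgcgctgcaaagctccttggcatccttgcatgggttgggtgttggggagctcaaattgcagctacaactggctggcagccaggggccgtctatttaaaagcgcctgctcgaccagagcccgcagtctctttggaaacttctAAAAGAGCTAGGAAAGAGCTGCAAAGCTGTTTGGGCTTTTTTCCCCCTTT
Igf2r: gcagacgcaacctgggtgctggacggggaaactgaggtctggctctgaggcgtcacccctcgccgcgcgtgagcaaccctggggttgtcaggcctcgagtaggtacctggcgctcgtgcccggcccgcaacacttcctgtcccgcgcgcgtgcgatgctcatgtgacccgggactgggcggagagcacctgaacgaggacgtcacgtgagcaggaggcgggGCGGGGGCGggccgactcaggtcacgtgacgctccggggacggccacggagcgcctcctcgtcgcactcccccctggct
The printed Igfbp2 promoter is 67% G or C, that of Igfbp5 56.3% and that of Igf2r 70.7%. GCGTGGGNG, a pattern taken from WT1 sites, and GCGNGGGCG, the pattern of the related factor EGR1, were searched on both strands; the patterns can overlap, and 238 promoters held both. All 10 members matched the RefSeq table, with 14 promoters in all, of which 0 held GCGTGGGNG and 1 held GCGNGGGCG. Among all 32851 promoters of the same length the shares were 1.9% and 5.55%. The Igf2r match starts 29 bases before the start site. A match is a description of letters and not of binding, and Igf2r did not differ between the genotypes beyond their spread.

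Igfbp5 encodes a binding protein that attaches to extracellular matrix. Its gene-level signal was 10.81, 10.76, 10.87 and 10.96 in wild-type replicates 1 to 4 and 10.71, 10.69, 10.81 and 10.67 in mutant replicates 1 to 4. The groups overlapped at 10.81, with a log2 difference of −0.13 ± 0.10 (SE, adjusted p = 0.614). Taken on the same array, the log2 difference between Igfbp2 and Igfbp5 moved by 0.58 between the genotypes (exact permutation p = 0.0286, the smallest possible, n = 4 per genotype). All 4 mutant arrays had a higher value than all 4 wild-type arrays. Igfbp2 alone already separated the genotypes, so this p repeats that result and is no separate evidence. This pair was chosen for its position, with the Igfbp2 values known. Of the 13 Igfbp5 probe sets 10 were lower, from −0.43 to 0.30, and in 5 the mutants lay wholly below the wild type, beside 5.49% of all probe sets. None was called, and 5 had an unadjusted p under 0.05, as 19.5% of all probe sets did.

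**Figure D3:**
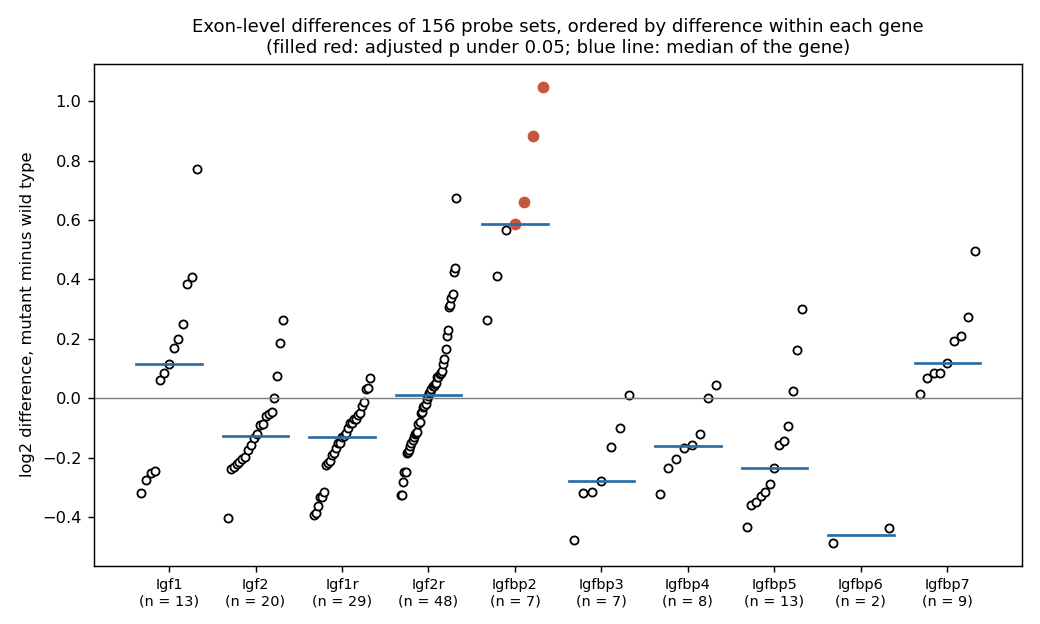
Log2 difference, mutant minus wild type, of the 156 probe sets of the 10 genes, sorted within each gene (n is the number of probe sets), with the median of the gene as a blue line. The 4 filled red points, all in Igfbp2, passed the threshold of 0.05, and 26 of 29 Igf1r probe sets lie below 0.

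Of the ligands, Igf1 read 8.36, 8.58, 8.70 and 8.49 in wild-type replicates 1 to 4 and 8.60, 8.52, 8.56 and 8.81 in mutant replicates 1 to 4. The groups overlapped and the log2 difference was 0.090 ± 0.12 (SE, adjusted p = 0.780), with a 95% interval of −0.18 to 0.36. Igf1 had 13 probe sets, 9 higher and 4 lower in the mutants. Its largest difference was 0.77 ± 0.27 in probe set 5254483 (adjusted p = 0.159), in which the genotypes overlapped. Probe sets of Igf1 ranged in mean signal from 5.19 to 12.20, so some of them were dim.

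Igf2 was close to the same level on all 8 arrays. Wild-type replicates 1 to 4 read 10.62, 10.59, 10.75 and 10.68, and mutant replicates 1 to 4 read 10.64, 10.57, 10.47 and 10.60. The log2 difference was −0.089 ± 0.10 (SE, adjusted p = 0.739), and its 95% interval, −0.32 to 0.14, leaves room for a fall of up to 0.32 or a rise of up to 0.14. Of 20 Igf2 probe sets 16 were lower, none was called and none had an unadjusted p under 0.05. They ranged from −0.40 to 0.26, and in 3 of them the mutants lay wholly below the wild type, beside 5.49% of all probe sets, of which 51.1% were higher. H19, the imprinted noncoding RNA next to Igf2, differed by −0.060 ± 0.11 (adjusted p = 0.849); it was named for its position and is the only such gene outside the naming rule here.

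Igf1r, the signalling receptor, was lower in mean. It read 9.82, 9.89, 9.75 and 9.59 in wild-type replicates 1 to 4 and 9.33, 9.66, 9.56 and 9.52 in mutant replicates 1 to 4. The groups overlapped between 9.59 and 9.66, and mutant replicate 1 was the lowest of the 8 arrays. The log2 difference was −0.24 ± 0.12 (SE, adjusted p = 0.402), −0.30 to −0.18 with an array left out, and −0.15 on the mean of its probe sets (adjusted p = 0.307). Across the gene 26 of 29 probe sets were lower, and in 7 the mutants lay wholly below the wild type, beside 5.49% of all probe sets, of which 51.1% were higher. None of the 29 was called, and 6 had an unadjusted p under 0.05, a share close to the 19.5% of all probe sets. The differences ran from −0.39 to 0.069, with a median of −0.13, beside 0.0081 over all probe sets.

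Igf2r, the clearance receptor, read 10.03, 9.88, 9.95 and 9.52 in wild-type replicates 1 to 4 and 9.76, 9.91, 9.91 and 9.78 in mutant replicates 1 to 4. Wild-type replicate 4 was the lowest of all, and the mutants lay within the wild-type range. The log2 difference was −0.0061 ± 0.13 (SE, adjusted p = 0.989), and its sign turned to 0.031 with each array centred on its median. Of its 48 probe sets 25 were higher and 23 lower, from −0.33 to 0.67, with none called and 3 at an unadjusted p under 0.05. The largest, probe set 4426281, read 10.66, 10.89, 10.36 and 9.83 in wild-type replicates 1 to 4 and 11.20, 11.20, 11.18 and 10.86 in mutant replicates 1 to 4 (log2 difference 0.67 ± 0.22 SE, adjusted p = 0.131). The genotypes overlapped there, at 10.86 to 10.89.

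The remaining binding proteins differed by less than Igfbp2. IGFBP3 is the main carrier of IGFs in adult serum. Its gene read 9.90, 9.67, 9.74 and 9.31 in wild-type replicates 1 to 4 and 9.51, 9.61, 9.59 and 9.54 in mutant replicates 1 to 4. Wild-type replicate 4 stood below all mutants while the other wild-type arrays stood above them. Means differed by −0.095 ± 0.14 (SE, adjusted p = 0.799), and it rested on single arrays. Leaving out wild-type replicate 4 gave −0.21 (adjusted p = 0.439), leaving out wild-type replicate 1 gave −0.013 (adjusted p = 0.978), and it was −0.23 on the mean of its probe sets (adjusted p = 0.127). Of 7 Igfbp3 probe sets 6 were lower, from −0.48 to 0.012, and none was called.

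IGFBP4, a substrate of the protease PAPP-A, mostly restrains IGF action. Igfbp4 read 8.17, 8.24, 8.18 and 8.34 in wild-type replicates 1 to 4 and 8.04, 8.05, 8.11 and 8.01 in mutant replicates 1 to 4. All mutants were below all wild-type arrays, by a small step. Means differed by −0.18 ± 0.10 (SE, adjusted p = 0.468; exact permutation p = 0.0286, the smallest possible, n = 4 per genotype). Of its 8 probe sets 7 were lower, from −0.32 to 0.044, with none called. A dimmer second cluster of this gene (−0.20 ± 0.12, adjusted p = 0.495) holds the same values as probe set 5305302, so it is no separate reading.

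IGFBP6 binds IGF2 in preference to IGF1. Igfbp6 read 6.93, 6.90, 7.09 and 7.06 in wild-type replicates 1 to 4 and 6.31, 7.07, 6.76 and 6.59 in mutant replicates 1 to 4. Mutant replicate 2 reached the wild-type range while mutant replicate 1 was far below it. The log2 difference of −0.31 ± 0.16 (SE, adjusted p = 0.419) became −0.19 without mutant replicate 1, −0.44 without mutant replicate 2 and −0.46 on the mean of its probe sets (adjusted p = 0.0598). Both Igfbp6 probe sets were lower, by −0.49 ± 0.14 (adjusted p = 0.104, genotypes not overlapping) and −0.44 ± 0.20 (adjusted p = 0.265).

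IGFBP7 binds IGFs more weakly than the other binding proteins do. Igfbp7 read 8.84, 8.93, 8.93 and 8.93 in wild-type replicates 1 to 4 and 8.85, 9.10, 9.07 and 8.84 in mutant replicates 1 to 4. The mutants spread to both sides of the wild type, with a log2 difference of 0.055 ± 0.11 (SE, adjusted p = 0.861), or 0.010 to 0.096 with an array left out. On the mean of its probe sets it was 0.17 (adjusted p = 0.178), with all 4 mutants above all 4 wild-type arrays. Its 9 probe sets were all higher in mean, by 0.014 to 0.49, where 51.1% of all probe sets were higher, and none was called. In 1 of the 9, probe set 4947535 (0.49 ± 0.15, adjusted p = 0.113), the mutants lay wholly above the wild type, beside 7.53% of all probe sets.

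Exon usage asked whether a probe set departed from the mean of its gene on the same array. Among 141 tested probe sets of 9 members limma called none, where 0.513% of 128589 were called, and 22 had an unadjusted p under 0.05, beside 20% of all. Igfbp6 had too few probe sets to be tested. The largest usage value was 0.66 ± 0.15 in the Igf2r probe set 4426281 (SE, adjusted p = 0.0762), and the usage values of the 4 Igfbp2 probe sets tested ran from −0.38 to 0.41 (lowest adjusted p 0.105). The diffSplice t test, which pools the variance within a gene, called 3 of the 141, in Igf1, Igf2r and Igfbp5. The share that diffSplice called over all tested probe sets is not given here. Under the alternative settings, usage calls over all tested probe sets ran from 54 to 4057, against 660 with limma. The 3 calls are therefore not read as a change of usage.

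The 3 lists of other pathway genes held 64 genes, of which 59 were measured. Of these, 1 rose, 2 fell and 56 were not called, 5.08% beside 0.827% of all clusters and 1.45% of genes with 1 symbol. Their median difference was 0.0091. The lists were written with earlier results of these data known, among them the fall of Cdkn1c, so this share is no independent evidence.

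**Figure D4:**
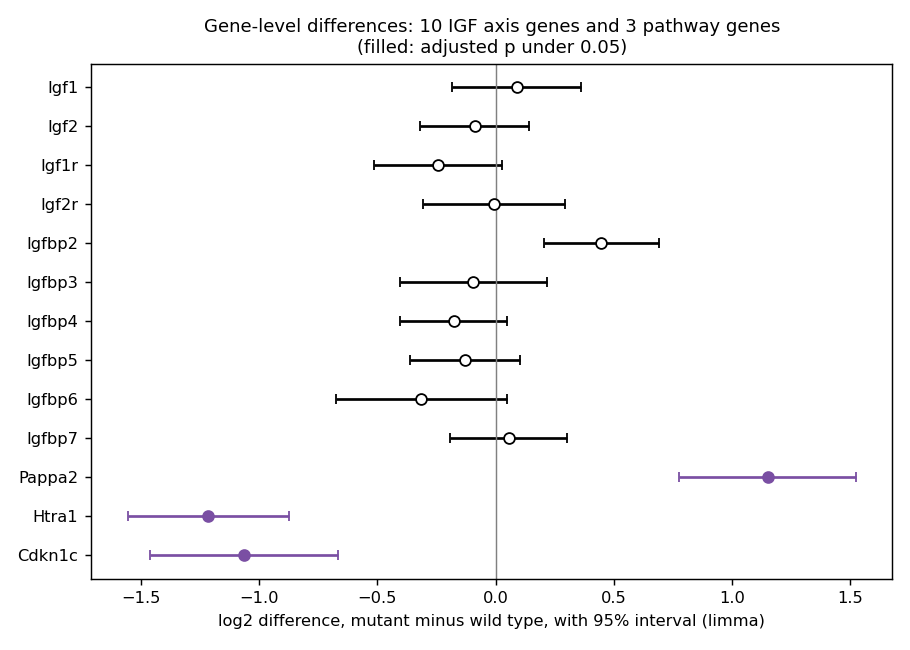
Gene-level log2 difference, mutant minus wild type, with limma's 95% interval (n = 4 per genotype) for the 10 IGF axis genes in black and the 3 called pathway genes in purple; filled points passed the threshold of 0.05. The interval of Igfbp2, 0.21 to 0.69, is the only one of the 10 that does not reach 0.

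In the list on IGF availability, proteases moved in opposite directions. Pappa2, a secreted protease that in humans cleaves IGFBP3 and IGFBP5, read 7.63, 8.03, 8.05 and 7.39 in wild-type replicates 1 to 4. It read 8.77, 9.06, 9.003 and 8.86 in mutant replicates 1 to 4, above all wild-type arrays. The rise was 1.15 ± 0.17 in log2 units, or 2.22-fold (SE, adjusted p = 0.0177). All 32 Pappa2 probe sets were higher, 25 of them called, beside 1.46% of all probe sets. The gene-level call was lost when wild-type replicate 1 was left out (adjusted p = 0.0612), and likewise for mutant replicates 2, 3 and 4 (0.0637, 0.0656 and 0.0506), at log2 differences of 1.10 to 1.17.

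Htra1, a secreted serine protease with IGF binding proteins among its known substrates, fell. It read 7.65, 7.18, 7.57 and 7.48 in wild-type replicates 1 to 4 and 6.40, 5.98, 6.46 and 6.17 in mutant replicates 1 to 4. The groups lay far apart. The signal was 2.32-fold lower, a log2 difference of −1.22 ± 0.15 (SE, adjusted p = 0.00906), and kept its call without each array in turn (adjusted p 0.0177 to 0.0358). All 8 Htra1 probe sets were called lower, with log2 differences of −1.84 to −0.78, beside 1.21% of all probe sets. The other 8 of the 10 genes in the list were not called. Among them Adam12, a metalloprotease that cleaves binding proteins, differed by −0.35 ± 0.11 (adjusted p = 0.190) and Igfbp1 by 0.41 ± 0.13 (adjusted p = 0.209). In both the genotypes did not overlap, as in 9.54% of all clusters and 17.5% of genes with 1 symbol.

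**Figure D5:**
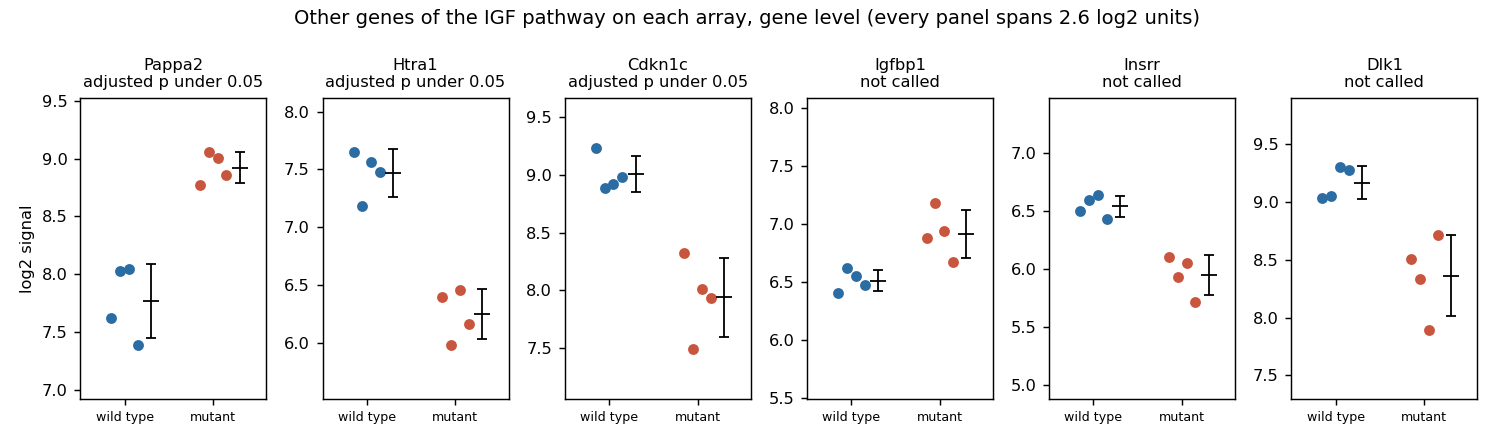
Gene-level log2 signal of 6 further genes of the IGF pathway, 1 point per array (wild type blue, mutant red, n = 4 each) with mean and SD in black. Pappa2 rose while Htra1 and Cdkn1c fell, and Igfbp1, Insrr and Dlk1 were separated between genotypes without passing the threshold. Genotypes did not overlap in 17.5% of genes with 1 symbol.

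Receptor signalling had no called gene among 34 measured, and its median difference was 0.041. There were 4 genes of the 34 with an unadjusted p under 0.05, where 14.3% of all clusters had one. Insrr, a receptor of the insulin receptor family that senses alkaline fluid, differed by −0.59 ± 0.12 (SE, adjusted p = 0.0675) and Socs2, a feedback inhibitor of growth hormone signalling, by 0.48 ± 0.14 (adjusted p = 0.157). Grb2, an adaptor between receptors and RAS, differed by −0.34 ± 0.13 (adjusted p = 0.287), and its sign turned on the mean of its probe sets (0.062). Rheb, the GTPase that activates mTORC1, differed by 0.31 ± 0.12 (adjusted p = 0.303).

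Among 15 measured genes on Igf2 mRNA binding and imprinted growth control, 1 was called. Cdkn1c, an imprinted inhibitor of cyclin-dependent kinases, read 9.23, 8.88, 8.92 and 8.98 in wild-type replicates 1 to 4 and 8.32, 7.49, 8.01 and 7.94 in mutant replicates 1 to 4. Its log2 difference was −1.06 ± 0.18 (SE, adjusted p = 0.0302), and 7 of its 10 probe sets were called lower, beside 1.21% of all probe sets. The call was lost with the letter as a random block (adjusted p = 0.101) and with the replicate number as a block. It was also lost without each array but mutant replicate 1 (adjusted p 0.0558 to 0.0912 without wild-type replicates 1 to 4, and 0.0605 to 0.0857 without mutant replicates 2 to 4). Dlk1, an imprinted membrane protein of the Notch ligand family, differed by −0.80 ± 0.18 (adjusted p = 0.0817). Its mutants lay below the wild type on every array, as in 4.74% of all clusters. Counting both directions, the genotypes did not overlap in 17.5% of genes with 1 symbol. Mest, also imprinted, differed by −0.30 ± 0.11 (adjusted p = 0.269), and Phlda2, an imprinted brake on placental growth, by 0.45 ± 0.21 (adjusted p = 0.382).

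For the 2 members of smallest p, the genes of most similar pattern were taken among 18301 others by the root mean square distance of the log2 profiles over 8 arrays, each centred on its mean. Nearest to Igfbp2 were Trappc4, Cnp and Reep2, at 0.056, 0.060 and 0.062 log2 units. They differed by 0.46, 0.45 and 0.39 between the genotypes and were not called (adjusted p = 0.117, 0.119 and 0.133). Nearest to Igf1r were Tmem245, Nav3 and Adcy2, at 0.045, 0.045 and 0.046 log2 units, with differences of −0.30, −0.27 and −0.24 (adjusted p = 0.308, 0.345 and 0.396). All profiles come from the same arrays and carry the genotype difference, so closeness is a description only.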

How the data were processed

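RNA of glomeruli, captured on magnetic beads per the labels' protocols, was hybridised to 8 exon arrays, and the 16 deposited samples are 2 summaries of them. The authors deposited log2 values whose making involved RMA, Partek and mm9 per the submitters' processing notes, without versions. That they are base 2 was taken from their span, 3.57 to 14.94. RMA draws dim probes toward a floor, so differences of dim genes are understated. Arrays have no read depth; their number limits the precision.

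Symbols came from the platform annotation, updated through RefSeq for 165 clusters and 25401 probe sets. Probe sequences were not used here, so probes that bind related genes cannot be recognised. Tests used limma 3.58.1 under R 4.3.3 (lmFit, eBayes, two-sided, 4 against 4, no covariate). Usage values were tested in the same way on probe sets at or above the 50th percentile of mean signal in genes with at least 3 of them. The scripts were tested on simulated data. The probe-set means used in the report replace a transcript cluster by the mean of the gene's probe sets.

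Named genes are Wt1, the members, and in each list the called genes and up to 4 of smallest p. Members and lists were chosen with earlier results of these data known. Alternatives were other variance models, array weights, the letter or replicate number as a block, other scalings and filters, and each array left out. Several genes of the lists were not analysed here, and neither were protein sequences. Marker lists of erythroid cells (4 measured), leukocytes (5), mesangium, pericytes and smooth muscle (7) and loop, distal tubule and collecting duct (6) had no call, and 1 of 8 endothelial markers, Ehd3, and 2 of 6 podocyte markers, Ptpro and Thsd7a, were called lower.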

Additional observations from a re-analysis of the deposited data

Results flagged for a closer look

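Among 40 sets of 4 arrays examined (the members, the called pathway genes and the Igfbp2 probe sets in each genotype), 1 held an array that stood apart by Dixon's criterion. Igfbp7 at the gene level was 8.84 in wild-type replicate 1, while the other 3 wild-type arrays all lay at 8.93. The gap to the nearest array was 0.928 of the group's range, above the 95% critical value. Chance marks about 1 set in 20. The range is narrow, and 2 mutant arrays stood at the same level or close to it (8.85 and 8.84).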

How the results depend on the processing

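The absence of gene-level calls among the 10 members held with trend and robust options, array weights, either block, both scalings and each array left out (range 0 to 0). It became 1 (Igfbp2) over rows with 1 symbol only, 1 over rows at or above the table median and 1 on the mean of probe sets, and 2 (Igfbp2 and Igfbp4) by the unadjusted exact permutation test. The 3 pathway calls became 8 over rows with 1 symbol, 11 on the mean of probe sets and 17 by the unadjusted exact test. With an array left out they were 1 to 3. On the mean of probe sets 11.4% of all genes were called. With 4 against 4 arrays the exact test passes only genes without overlap, 28.8% of the pathway genes beside 17.5% of genes with 1 symbol. For the refit over rows with 1 symbol the share over all rows is not given here. The 4 probe-set calls became 9 with trend and robust options (4 in Igfbp2, the others in Igf2, Igfbp3, Igfbp5 and Igfbp7), 0 with the letter block, 2 after quantile normalization again, and 0 to 2 with an array left out. The usage count of 0 became 3 with diffSplice and stayed 0 otherwise, with each array left out too. Shares called over all rows with trend and robust options, and with diffSplice, are not given here. The 9 and the 3 are therefore not read as results about the members. Over all rows, calls ran from 185 to 1408 clusters and 2831 to 16875 probe sets under these alternatives, against 774 and 10035. Usage calls ran from 54 to 4057, against 660.

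Igf2r changed sign to 0.013 with the letter block, 0.030 after quantile normalization again, 0.031 with centred arrays, 0.023 on the mean of probe sets, and over −0.11 to 0.056 with an array left out; Grb2 did so on the mean of probe sets (0.062). Causes were not tested. The labels give no meaning to shared replicate numbers, and not every pair correlated above 0.1, so the arrays were not taken as paired. Deviations of same-numbered arrays correlated by −0.0048 to 0.26 for clusters and −0.00076 to 0.24 for probe sets, and the best partner was the same number in 2 of 4 pairs for clusters and 3 of 4 for probe sets, a hint from the data only. With the replicate block the probe-set calls were 1, the pathway calls 2 (Cdkn1c not called, adjusted p = 0.0533) and the members' calls 0. The alternatives for the probe-set mean of Igfbp2 were added after seeing the data; under all 13 it stayed called, replicate block included (adjusted p = 0.00824).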

Other observations

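Genes of the availability list outside the naming rule, chosen after their values were seen, are given as values. Pappa, the pappalysin related to Pappa2, differed by −0.34 ± 0.11 on the log2 scale (SE, adjusted p = 0.210), opposite in sign to Pappa2. Its mutants lay below the wild type on every array, as in 4.74% of all clusters. Counting both directions, the genotypes did not overlap in 17.5% of genes with 1 symbol. Stc2, a secreted inhibitor of the pappalysins, differed by 0.25 ± 0.11 (adjusted p = 0.327) and its relative Stc1 by 0.27 ± 0.15 (adjusted p = 0.455). The difference between Pappa and Pappa2 was not tested.

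Igfbp1 and Igfbp3 are neighbours on chromosome 11 in the RefSeq gene order, as Igfbp2 and Igfbp5 are on chromosome 1. In both pairs the gene-level log2 difference of the first was above 0 (0.41 for Igfbp1, 0.45 for Igfbp2) and that of the second below 0 (−0.095 for Igfbp3, −0.13 for Igfbp5), with no gene of these 4 called.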
